A study of Mus musculus with 12 samples.

Results

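Type A receptors for GABA (GABA-A receptors) were examined through the chromatin of 7 of their subunit genes in cultured mouse cortical neurons: Gabra2, Gabra3, Gabra4 and Gabra5 (alpha subunits), Gabrb1 and Gabrb2 (beta subunits) and Gabrg3 (a gamma subunit). Peaks of all 12 ATAC-seq libraries were merged into regions where they overlapped by at least 1 bp, and a region was taken when it lay in the gene body or within 10 kb upstream of a start site of one of these genes (GENCODE vM21, GRCm38). This gave 204 of 263562 regions. ATAC-seq marks open chromatin by inserting sequencing adapters with the transposase Tn5. It does not measure how much of a subunit is made.

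All libraries came from primary cortical neurons of wild-type C57BL/6 embryos at embryonic day 18, with 3 libraries in each of 4 groups. The PBS group received vehicle for 7 days and the PFF group received pre-formed fibrils of alpha-synuclein, which seed aggregation in neurons, for 7 days. The PFF+MLi-2 group received fibrils for 7 days and MLi-2, which inhibits the kinase LRRK2, for the last 5 days. The PFF+Rab5 ASO group received fibrils for 7 days and antisense oligonucleotides (the Rab5 ASO) against mRNAs of the endosomal GTPases Rab5a and Rab5b for the last 3 days. The free-text descriptions of the libraries of these last groups name PBS instead of PFF, but PFF stands in their titles, in their treatment labels and in the design text, and this was followed. The labels assign batch 1 throughout, and no group received MLi-2 or the ASO without fibrils. No group is labelled as having received a control oligonucleotide. Culture from a whole embryonic cortex yields a mixture of cells, so a lower peak may reflect fewer cells of a type or less open chromatin per cell, and these cannot be told apart.

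GABA-A receptors are pentameric chloride channels that carry most fast inhibition in the forebrain. Alpha and beta subunits form the GABA-binding sites, a gamma subunit commonly completes the pentamer, and the alpha subunit shapes binding of benzodiazepines and placement at or outside synapses. The subunit genes lie in clusters: Gabra2, Gabra4 and Gabrb1 share one on chromosome 5, Gabra5 and Gabrg3 one on chromosome 7, Gabrb2 lies on chromosome 11 and Gabra3 on the X chromosome. In embryonic and early postnatal cortex, Gabra2, Gabra3 and Gabra5 are known as abundant alpha subunits, and Gabra4 comes later.

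Sequences of some regions that differed between groups are given here before their values. Whether the differences rest on sequence was not tested, and the printed sequences are a selection from the regions named below. All are the reference sequence of GRCm38 (RefSeq), plus strand, 5′ to 3′, away from exons. Capitals mark matches on either strand to TGANTCA (the site of AP-1, a dimer of Fos and Jun proteins), CATCTG (an E-box of neuronal basic helix-loop-helix factors, CAGATG on the opposite strand) or the outer letters of the MEF2 site with any 4 bases between them. CACGTG (the E-box of TFEB and TFE3), TGACGTCA (CREB), GCGTGGGCG (EGR) and the paired NFI site were also searched on both strands and had no match in these stretches. A match describes the letters and is not evidence of binding.

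In 2 intronic regions of Gabrg3 and 1 of Gabra2 and of Gabrb1, all 3 libraries of at least 1 group had a peak and all 3 of another had none. In the second Gabrg3 region and the Gabrb1 region, other groups had a peak in only some of their libraries.
Gabrg3 intron 3, absent from PFF, chr7:57214156-57214379: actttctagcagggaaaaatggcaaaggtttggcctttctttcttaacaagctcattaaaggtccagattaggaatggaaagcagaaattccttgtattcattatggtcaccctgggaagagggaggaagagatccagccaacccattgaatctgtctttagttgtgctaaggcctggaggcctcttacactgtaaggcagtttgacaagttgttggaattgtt
Gabrg3 intron 3, present with the Rab5 ASO, chr7:57215964-57216111: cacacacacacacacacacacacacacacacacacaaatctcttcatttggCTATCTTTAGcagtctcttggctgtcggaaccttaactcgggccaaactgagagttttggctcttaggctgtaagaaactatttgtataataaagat
Gabra2 intron 6, absent with MLi-2, chr5:71010922-71011080: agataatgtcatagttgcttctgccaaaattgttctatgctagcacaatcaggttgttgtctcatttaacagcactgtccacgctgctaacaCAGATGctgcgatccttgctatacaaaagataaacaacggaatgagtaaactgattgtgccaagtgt
Gabrb1 intron 3, absent with the Rab5 ASO, chr5:71761288-71761470: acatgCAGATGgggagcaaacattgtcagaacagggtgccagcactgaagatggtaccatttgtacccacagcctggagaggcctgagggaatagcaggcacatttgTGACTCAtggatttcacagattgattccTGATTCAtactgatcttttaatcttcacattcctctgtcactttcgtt
In 4 more regions every library had a peak, and its height rank differed between PFF+Rab5 ASO and another group. For the Gabra2 and Gabra3 regions that group was PBS alone, so their labels mean lower or higher than PBS. In the Gabra2 region the PFF+Rab5 ASO libraries overlapped those of PFF and PFF+MLi-2. The first 2 stretches cover up to 300 bases of longer regions, and the last begins after the exon that the Gabra3 region touches.
Gabrg3 intron 5, lower with the Rab5 ASO, chr7:56843580-56843879: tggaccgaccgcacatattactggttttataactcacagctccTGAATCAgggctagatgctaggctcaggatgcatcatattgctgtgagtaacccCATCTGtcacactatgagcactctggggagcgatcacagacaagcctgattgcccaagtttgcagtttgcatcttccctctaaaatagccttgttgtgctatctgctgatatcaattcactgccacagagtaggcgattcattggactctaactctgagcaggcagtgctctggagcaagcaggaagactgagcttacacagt
Gabra4 intron 8, higher with the Rab5 ASO, chr5:71604185-71604484: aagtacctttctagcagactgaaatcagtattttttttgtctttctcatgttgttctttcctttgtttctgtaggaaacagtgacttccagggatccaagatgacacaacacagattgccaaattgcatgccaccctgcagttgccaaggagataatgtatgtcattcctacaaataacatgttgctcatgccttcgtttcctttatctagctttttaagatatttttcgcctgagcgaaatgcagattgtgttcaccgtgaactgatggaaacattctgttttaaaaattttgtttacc
Gabra2 intron 4, lower with the Rab5 ASO, chr5:71025941-71026231: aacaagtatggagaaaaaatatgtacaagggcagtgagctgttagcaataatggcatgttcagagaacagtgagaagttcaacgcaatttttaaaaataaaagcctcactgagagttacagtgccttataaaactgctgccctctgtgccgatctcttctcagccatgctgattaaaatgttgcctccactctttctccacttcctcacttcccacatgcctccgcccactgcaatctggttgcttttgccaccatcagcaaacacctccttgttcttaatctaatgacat
Gabra3 start site, higher with the Rab5 ASO, chrX:72656247-72656499: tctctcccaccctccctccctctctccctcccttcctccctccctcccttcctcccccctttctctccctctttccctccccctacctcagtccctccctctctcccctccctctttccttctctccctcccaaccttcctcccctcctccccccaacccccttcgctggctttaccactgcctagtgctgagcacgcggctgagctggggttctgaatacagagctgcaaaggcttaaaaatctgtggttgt

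The Gabrb1 stretch held TGANTCA at 2 positions and CAGATG at 1, and the Gabrg3 intron 5 stretch held 1 match to each. The second Gabrg3 intron 3 region carried the MEF2 letters in the form CTATCTTTAG, close to a run of CA repeats at its start. The Gabra3 stretch was 60.5% G or C, and 78.7% of its letters on the printed strand were C or T. Within 100 bp of their summits, 25 of the 204 regions (12.3%) held TGANTCA against 10.8% of all regions. CATCTG was in 44 (21.6% against 22.1%), the MEF2 letters in 8 (3.92% against 4.03%) and CACGTG in 2 (0.980% against 3.50%), while TGACGTCA, NFI and EGR letters were in 0 member regions, against 0.407%, 0.0668% and 0.133% of all regions. The subunit regions were also poorer in G and C, with a median of 43.5% against 48.5% over all regions, and 42.5% away from start sites against 48% in the windows of all genes. These shares are descriptions and were not tested.

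The 12 lists held 137417 to 184717 peaks, and the relative depth derived from them ran from 0.775 to 1.31 around a mean of 1. Peaks called within the subunit genes rested on few fragments, with a median of 16 and a range of 8 to 62 at the summit. Relative depth was 1.05 to 1.31 with the Rab5 ASO and 0.775 to 1.03 in the other 9 libraries, and median peak width was 112 to 124 bp against 127 to 139 bp, so these differ together with the Rab5 ASO. All 7 neuronal marker promoters fixed for the check had a peak in 12 of 12 libraries, as did 5 of 5 for GABAergic neurons, 4 of 4 for astrocytes and 4 of 5 for the oligodendrocyte lineage. Of the 4 microglial promoters 0 had a peak in all libraries, and Cx3cr1 and Aif1 had none. Mean percentiles of the neuronal promoters ran from 14.3 (Slc17a7) to 98.7 (Syn1). Among non-neural genes, Col1a1 had a peak in 12 of 12 libraries at a mean percentile of 79.8, while Cldn5 had one in 1 library and Pecam1 in 0.

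Gabrg3, a gamma subunit that can take the gamma position of the pentamer, was the longest of the genes at 671 kb and carried 78 regions. Gabrb1 (491 kb) carried 53, Gabra5 (102 kb) 24, Gabrb2 (209 kb) 20, Gabra2 (138 kb) 16, Gabra4 (88.6 kb) 14 and Gabra3 (224 kb) 7. Gabra4 and Gabrb1 stand head to head, and 8 regions lay in the windows of both. Gabra2 spans chr5:70957597-71095849, Gabra4 chr5:71569749-71658308, Gabra5 chr7:57407672-57510059, Gabrg3 chr7:56716465-57387188 and Gabra3 chrX:72432681-72656848, all on the minus strand. Gabrb1 (chr5:71658113-72149037) and Gabrb2 (chr11:42419757-42629028) lie on the plus strand. Per 100 kb of window, Gabra5 had the most regions at 21.4 and Gabra3 the fewest at 2.99. The other genes had 9.12 (Gabrb2), 10.6 (Gabrb1), 10.8 (Gabra2), 11.5 (Gabrg3) and 14.2 (Gabra4). The median over 3185 protein-coding genes of at least 80 kb was 13.7, with quartiles of 8.11 and 19.9, so Gabra5 lay above the upper quartile, Gabra3 below the lower one and the others between them. Part of the Gabra5 and Gabrg3 cluster overlaps other annotated genes, and 39 of the 204 regions also lay in the window of a gene outside the list.

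Of the 204 regions, 171 were intronic, 21 lay within 1 kb of a start site of a member gene, 7 touched another exon and 5 lay upstream. A peak was present in all 12 libraries in 42 regions (20.6%, against 27.5% of all regions) and in 1 library only in 52 (25.5% against 26.6%). The constant regions numbered 13 in Gabrb1, 10 in Gabrg3, 6 in Gabra2, 5 in Gabra5, 4 in Gabra4, 4 in Gabrb2 and 1 in Gabra3, with the region at the shared start of Gabra4 and Gabrb1 counted in both. For Gabra3, height could therefore be followed in 1 region alone.

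The number of subunit regions with a peak was 124, 76 and 96 in the PBS libraries (98.7 ± 24.1, SD, n = 3). It was 109, 100 and 93 in PFF (101 ± 8.02), 91, 89 and 85 in PFF+MLi-2 (88.3 ± 3.06) and 123, 110 and 112 in PFF+Rab5 ASO (115 ± 7.00). PFF+MLi-2 lay below PFF and PFF+Rab5 ASO lay above it, each without overlap, while the PBS libraries spanned all other groups. As a share of all regions called in the same library, the subunit regions made up 0.0740 ± 0.00676% in PBS, 0.0719 ± 0.00202% in PFF, 0.0721 ± 0.00215% with MLi-2 and 0.0809 ± 0.00365% with the Rab5 ASO. On this scale PFF and PFF+MLi-2 differed by less than 1 SD.

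**Figure D1:**
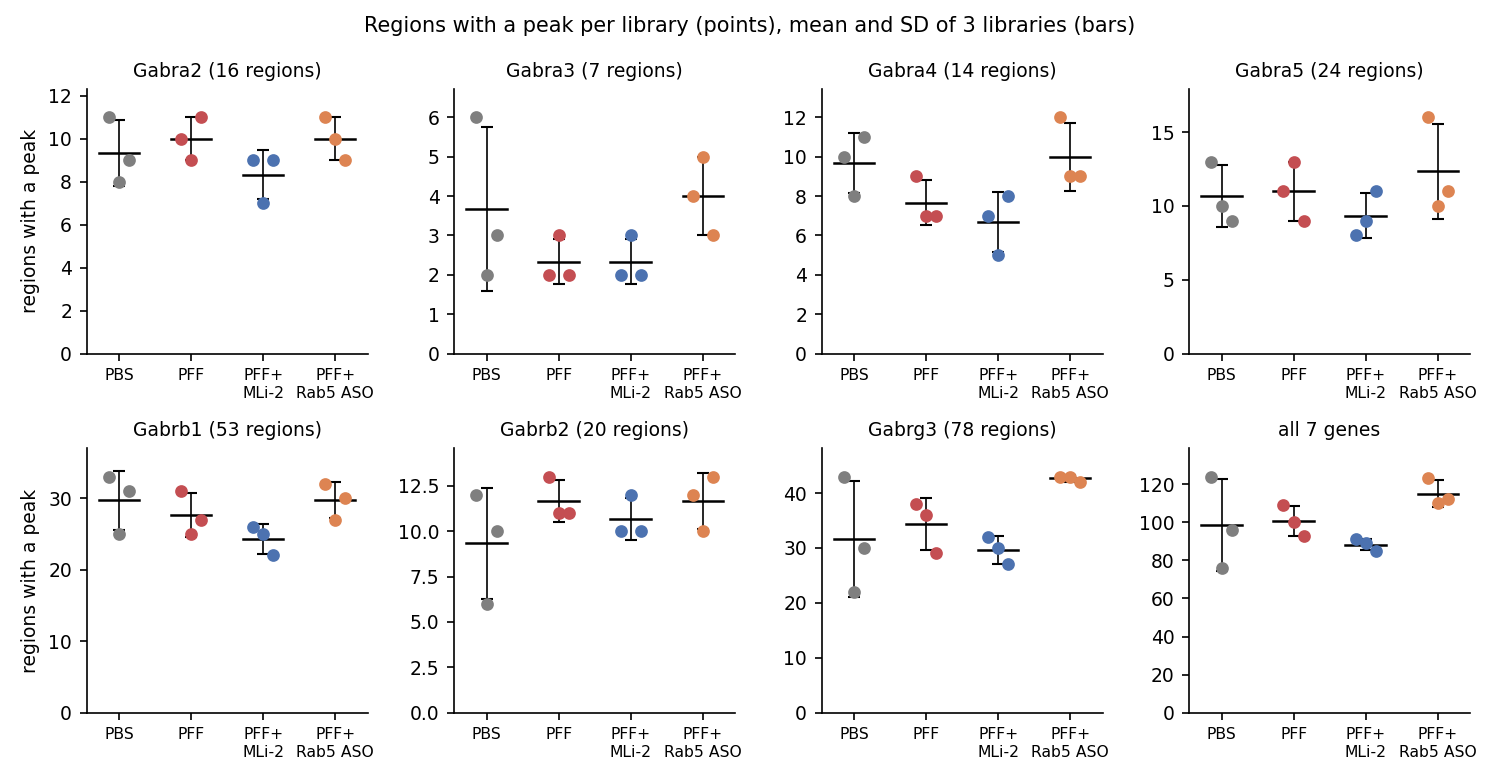
Number of regions with a peak per gene and library (vertical axes, starting at 0) in the 4 groups, with the sum over the 7 genes at the lower right. Points are libraries, and bars are the mean and SD of 3 libraries. For Gabrg3 the PFF+Rab5 ASO libraries sit at 42 to 43 and the PFF libraries at 29 to 38, while the PBS libraries spread from 22 to 43.

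Of the 7 genes, Gabrg3 had the largest difference in mean number between PFF+Rab5 ASO (42.7 ± 0.577) and PFF (34.3 ± 4.73). It had 43, 22 and 30 called regions in PBS, 38, 36 and 29 in PFF, 32, 30 and 27 with MLi-2 and 43, 43 and 42 with the Rab5 ASO. The PFF+Rab5 ASO libraries lay above every PFF and PFF+MLi-2 library and level with the highest PBS library. Relative to all calls of the library on a log2 scale, Gabrg3 was 0.30 (SE 0.0882) higher in PFF+Rab5 ASO than in PFF and 0.36 (SE 0.105) higher than in PBS, with limma adjusted p = 0.0642 and 0.0767 over 14083 genes, which did not pass the threshold of 0.05. With 1 library left out the first adjusted p ran from 0.0438 (without PFF replicate 1) to 0.234 (without PFF replicate 3) and passed in 1 of 6 cases. The second ran from 0.0146 (without PBS replicate 1) to 0.334 (without PBS replicate 2, where the difference was 0.23) and passed in 2 of 6. With the replicate number as a block they were 0.154 and 0.0353. Limiting each library to its 137417 top peaks by −log10 p-value brought the Gabrg3 differences down to 0.12 (SE 0.132, adjusted p = 0.664) and 0.12 (SE 0.125, adjusted p = 0.683). Their size therefore depends on which peaks are kept.

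Gabra4, a subunit of receptors outside synapses in mature forebrain, had 10, 8 and 11 called regions in PBS, 9, 7 and 7 in PFF, 7, 5 and 8 with MLi-2 and 12, 9 and 9 with the Rab5 ASO. Gabra3 had 6, 2 and 3 in PBS, 2, 3 and 2 in PFF, 2, 3 and 2 with MLi-2 and 4, 5 and 3 with the Rab5 ASO. Both genes had their lowest group means in PFF and PFF+MLi-2, and PFF and PFF+Rab5 ASO shared a value in each. For Gabra2, Gabra5, Gabrb1 and Gabrb2, the group means ran from 8.33 to 10.0, from 9.33 to 12.3, from 24.3 to 29.7 and from 9.33 to 11.7, and each gene's groups overlapped in PFF and PFF+Rab5 ASO. In limma 0 of the 7 genes passed in any of the 5 comparisons. In PFF+Rab5 ASO vs PFF, 1.41% of all genes passed as higher and 2.19% as lower, and 3 of 7 (Gabrg3, Gabra3 and Gabra4, all higher) had an unadjusted p under 0.05 against 19.3% of all genes. With lists of equal length 1 of 7 did (Gabra4, higher by 0.49 on the log2 scale, SE 0.108, adjusted p = 0.101), and the Gabra3 difference went from 0.64 (SE 0.242) to -0.06 (SE 0.357). In PFF vs PBS 0% of genes passed, and 1 of 7 (Gabra4, lower by the log2 measure, unadjusted p = 0.0146, adjusted p = 0.449) had an unadjusted p under 0.05 against 8.35%. With lists of equal length 0 of 7 did, and the Gabra4 difference went from -0.41 (SE 0.159) to -0.29 (SE 0.142). The corresponding counts were 0 of 7 against 9.7% in PFF+MLi-2 vs PFF, 1 of 7 against 5.13% in PFF+MLi-2 vs PBS and 1 of 7 against 14.3% in PFF+Rab5 ASO vs PBS, where 0.717% of genes passed as higher and 0.675% as lower. With lists of equal length each of these was 0 of 7.

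At the start sites, all 7 genes had a region with a peak in every library. Heights are given as the percentile of the fold enrichment within a library's own list, since fold enrichment cannot be compared between lists. The region shared by Gabra4 and Gabrb1 (chr5:71657464-71658158) was the highest of all, with percentiles of 95.6, 97.4 and 95.6 in PBS, 98.4, 98.0 and 98.7 in PFF, 98.6, 98.5 and 95.0 with MLi-2 and 98.0, 96.8 and 93.8 with the Rab5 ASO. It was not below 93.8 in any library, and the PFF libraries lay above all PBS libraries. In an exact permutation test over the 15400 partitions of the libraries into 4 groups (one-sided), p was 0.314.

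Gabra2, the alpha subunit typical of the axon initial segment, had its highest start-site region at chr5:71095694-71096552 with a mean percentile of 87.9, and group means from 86.8 to 89.8 (exact permutation p = 0.695). Gabra5, whose receptors lie largely outside synapses, reached 82.5 at chr7:57509677-57510173, with group means from 78.4 to 86.1 (exact permutation p = 0.302). Gabrg3 reached 77.7 at chr7:57386509-57387469, with group means from 77.1 to 78.0 (exact permutation p = 0.975). Gabrb2, a beta subunit of the common adult receptor, had 76.9, 87.5 and 83.3 in PBS, 81.6, 78.2 and 83.0 in PFF, 71.7, 79.2 and 75.4 with MLi-2 and 83.7, 83.4 and 85.7 with the Rab5 ASO at chr11:42419782-42420517. The PFF+Rab5 ASO percentiles were above those of PFF and PFF+MLi-2. Among the regions with a peak in every library, the normal scores of PFF+Rab5 ASO and PFF overlapped (score difference 0.15, SE 0.196, limma adjusted p = 0.711). The exact permutation p over the 4 groups was 0.0754. After adjustment over all 72408 regions tested, p for these 6 regions ran from 0.123 (Gabra3) to 0.987 (Gabrg3). Order by mean height over all 12 libraries was Gabra4 with Gabrb1, Gabra2, Gabra3, Gabra5, Gabrb2 and Gabrg3, in which the ranges over libraries overlapped between all neighbours but the first pair. The order was not that of each group, since Gabra3 had the highest mean with the Rab5 ASO and the lowest with MLi-2.

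Gabra3, the alpha subunit of early cortical receptors, had the widest range of these start-site regions. Its start-site region chrX:72656237-72656499 has its summit 96 bp from an annotated start site, in the pyrimidine-rich sequence printed above. The percentiles were 85.6, 80.4 and 85.8 in PBS, 89.6, 93.7 and 83.9 in PFF, 65.1, 55.4 and 80.8 with MLi-2 and 98.2, 96.5 and 98.2 with the Rab5 ASO. At the summit these were 23, 20 and 22, then 25, 28 and 21, then 17, 14 and 21, then 37, 32 and 35 fragments. The PFF+Rab5 ASO libraries stood above every other library, and PFF+MLi-2 below every PFF library. Only the difference between PFF+Rab5 ASO and PBS passed in limma, where the normal score of the rank was 1.19 (SE 0.209) higher, adjusted p = 0.0325. That call ended when any 1 library was left out (limma adjusted p 0.0629 to 0.0997). It also ended with the replicate block (0.0762) and with ranks of the −log10 p-value (0.0550). Against PFF the PFF+Rab5 ASO score was 0.88 (SE 0.225) higher with adjusted p = 0.0605, and the difference between PFF+MLi-2 and PFF was -0.98 (SE 0.295), adjusted p = 0.302. Over the 4 groups the exact permutation p was 0.00039, and 0.123 after adjustment over the 72408 regions with a peak in every library. In that test 0 of 42 subunit regions passed an adjusted p of 0.05 and 0% of all regions did, while 4 of 42 (9.52%) had an unadjusted p under 0.05 against 17% of all.

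**Figure D2:**
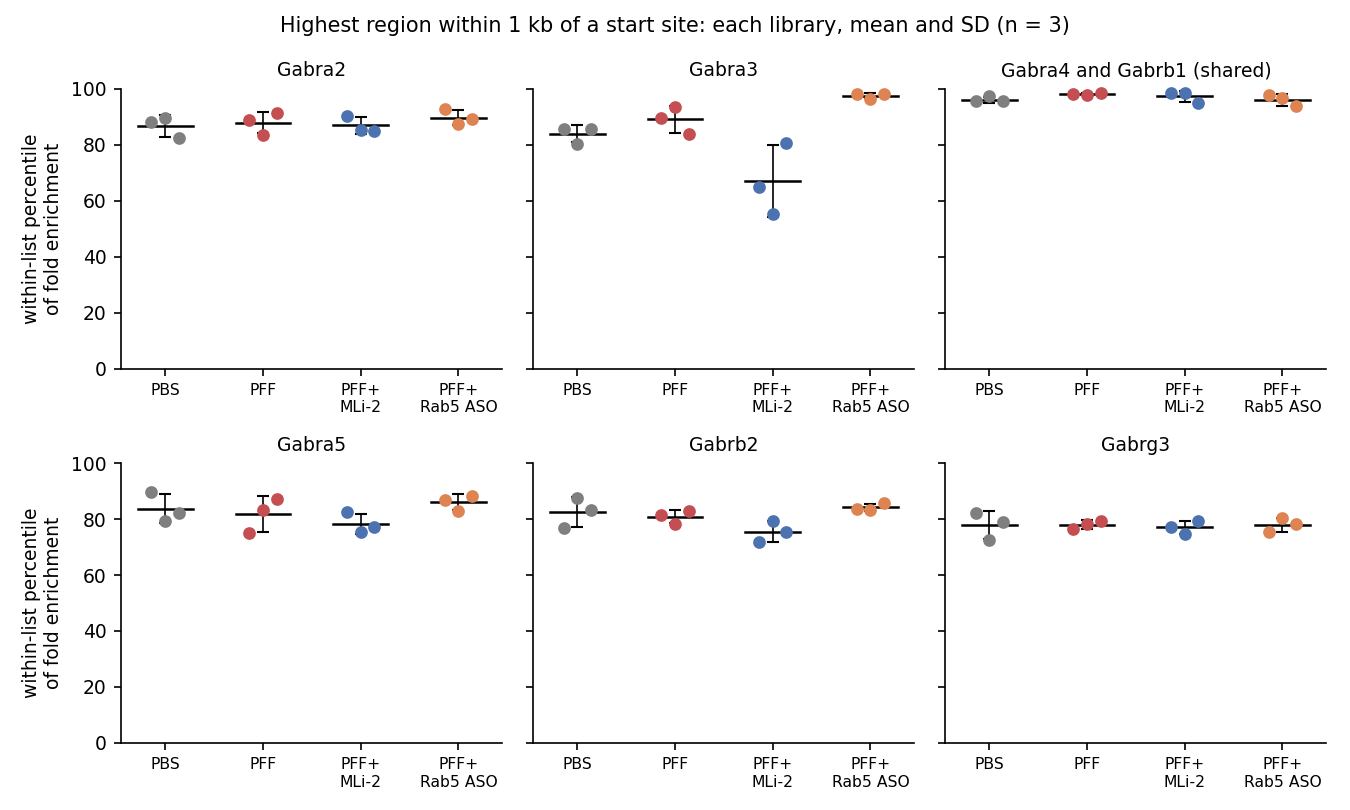
Within-list percentile of fold enrichment (vertical axes, 0 to 100) of the highest region within 1 kb of a start site of each gene, by group. Points are libraries, and bars are the mean and SD of 3. Gabra3 ranges from 55.4 in a PFF+MLi-2 library to 98.2 in PFF+Rab5 ASO, while the shared Gabra4 and Gabrb1 region stays between 93.8 and 98.7.

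In Gabra2, Gabra5, Gabrb2 and Gabrg3 the highest region of the gene was intronic, and in Gabra3, Gabra4 and Gabrb1 it was the start site. In Gabra5 it lay in intron 6 (chr7:57474208-57474472, mean percentile 96.1, group means 95.0 to 97.9). In Gabrb1, after the shared start, it lay in intron 4 (chr5:71976504-71977061, mean 95.0, group means 94.0 to 95.9), 277 kb from the nearest start site. In Gabrg3 it lay in intron 3 (chr7:57051340-57051633, mean 93.2), 335 kb inside the gene, in Gabra2 in intron 6 (chr5:71011154-71011716, mean 90.0) and in Gabrb2 in intron 9 (chr11:42606257-42606603, mean 82.6). These 5 intronic regions had a peak in all 12 libraries, and their smallest limma adjusted p over the 5 comparisons was 0.0943, for Gabra2 in PFF+Rab5 ASO vs PFF (score difference 0.68, SE 0.205). Intron numbers refer to the annotated transcript with the most exons.

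The comparison of PFF with PBS asks what the fibrils change. Gained regions are those with a peak in 3 of 3 libraries of the group named first and in 0 of 3 of the other, and lost regions are the reverse. Of the 169 subunit regions with a peak in any of these 6 libraries, 2 were gained (1.18%, against 1.1% of all regions) and 1 was lost (0.592% against 0.404%). With lists of equal length 0 were gained and 1 lost, and at a −log10 q of at least 5 there was 1 of each. Losses also outnumbered gains where a peak in 2 of 3 libraries was enough (5 gained, 6 lost) and without PBS replicate 2 (2 gained, 4 lost). The lost region was in intron 3 of Gabrg3 (chr7:57214156-57214379), 173 kb from the start site. Its percentiles were 72.9, 71.0 and 62.8 in PBS, 73.0, 61.1 and 74.8 with MLi-2 and 76.4, 61.2 and 31.0 with the Rab5 ASO, with 12 to 20 fragments at the summit, and no PFF library had a peak there. It was thus present in all 9 libraries outside PFF. Genome-wide 37 regions (0.014%) had that pattern, and 1 of them was in a subunit gene. Relative depth had its lowest mean in PFF (0.775 to 0.919) but overlapped PBS (0.912 to 0.976), and it was 0.957 to 1.03 with MLi-2. Mean list length was 163568 peaks in PFF, 156860 in PBS, 146502 with MLi-2 and 171787 with the Rab5 ASO. The part of depth in this absence was not tested.

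The regions gained in PFF were low. In Gabra5 intron 8, chr7:57418878-57418999 had percentiles of 18.5, 10.9 and 22.6 in PFF, a peak at 41.5 in 1 PFF+MLi-2 library and peaks at 39.4, 39.3 and 19.2 in PFF+Rab5 ASO. This region also lies near a start site of another gene on the opposite strand. In Gabrg3, chr7:57178992-57179161 touched an annotated exon and had percentiles of 40.4, 21.1 and 43.4 in PFF, 7.12 in 1 PFF+MLi-2 library and 29.1, 16.2 and 9.4 in PFF+Rab5 ASO. Both were absent from all PBS libraries and rested on 9 to 13 fragments wherever they were called.

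By height rank, limma called 0 of 42 subunit regions in PFF vs PBS and 0% of all 72408 regions. At an unadjusted p under 0.05 there were 2 of 42 (4.76%) against 9.71% of all regions. The lower one was Gabra2 intron 4 (chr5:71025941-71026231), with percentiles of 83.6, 66.8 and 78.5 in PBS and 79.7, 49.99 and 43.4 in PFF, which overlap (score difference -0.76, SE 0.326, adjusted p = 0.489). The higher one was Gabrg3 intron 3 (chr7:57277418-57277711), with 62.1, 36.9 and 53.1 in PBS and 75.0, 60.4 and 66.0 in PFF, which overlap on the percentile scale but not in score (score difference 0.53, SE 0.234, adjusted p = 0.506). Groups without overlap in score were seen in 4 of 42 (9.52%) against 15.1% of all regions.

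**Figure D3:**
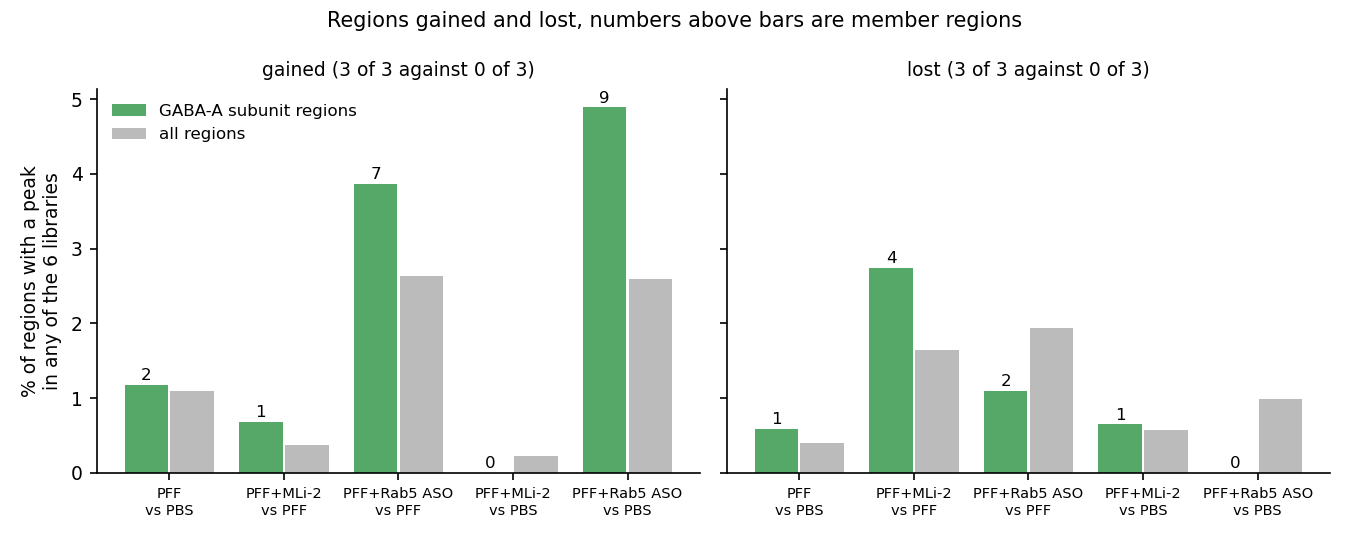
Percentage of regions gained (left) and lost (right) in each comparison, among subunit regions (green) and among all regions (grey), with the number of subunit regions above each green bar. The tallest pair is PFF+Rab5 ASO vs PBS, with 9 gained subunit regions (4.89%) against 2.59% of all regions.

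PFF+MLi-2 vs PFF asks what LRRK2 inhibition changes in fibril-treated neurons. Of 146 subunit regions 1 was gained (0.685% against 0.374%) and 4 were lost (2.74% against 1.64%). This balance turned to 3 gained and 1 lost with lists of equal length, and was 2 and 2 at a −log10 q of at least 5. The gained region was the same Gabrg3 intron 3 region that was lost in PFF vs PBS. These comparisons share the PFF libraries, as does PFF+Rab5 ASO vs PFF, so they are not independent. The highest lost region was in intron 6 of Gabra2 (chr5:71010922-71011080), with percentiles of 43.4, 40.5 and 41.0 in PBS, 40.4, 46.0 and 45.8 in PFF, none with MLi-2 and 36.8, 33.3 and 37.5 with the Rab5 ASO. A peak lay in it in all 9 libraries outside PFF+MLi-2, as in 143 regions genome-wide (0.0543%). Its peaks held 12 to 14 fragments at the summit. They were 65 to 142 bp wide and did not all overlap. The PFF replicate 1 peak ended at position 71011000, and the PBS replicate 1 peak began at 71011009. Where a library had to cover at least 50% of the 100 bp around the summit, 0 regions were lost in PFF+MLi-2 vs PBS, so the call against PBS ended. In PFF+MLi-2 vs PFF 3 regions were gained and 4 lost under that rule. The lost Gabra2 region lies 73 bp from the highest region of Gabra2 (chr5:71011154-71011716). There the percentiles were 89.0, 80.9 and 86.4 in PFF and 90.8, 93.1 and 91.8 in PFF+MLi-2. These did not overlap, but the difference did not pass in limma (score difference 0.52, SE 0.206, adjusted p = 0.396).

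The other 3 regions lost with MLi-2 were each present in at least 2 PFF+Rab5 ASO libraries. Gabra4 intron 2, which also lies in the Gabrb1 upstream window (chr5:71648270-71648540), had 30.0, 32.2 and 43.4 in PFF, 29.3 and 49.8 in 2 PBS libraries and 60.7, 61.2 and 63.3 in PFF+Rab5 ASO. Gabrb1 intron 5 (chr5:72069549-72069667) had 40.4, 21.1 and 33.6 in PFF, 29.3 in 1 PBS library and 17.9 and 28.3 in 2 PFF+Rab5 ASO libraries. Gabrg3 intron 3 (chr7:57042026-57042247) had 40.4, 21.1 and 5.1 in PFF, 29.3 and 40.5 in 2 PBS libraries and 36.6, 51.4 and 41.7 in PFF+Rab5 ASO. These peaks sat in the lower part of their lists in PFF.

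By height rank, limma called 0 of 42 subunit regions in PFF+MLi-2 vs PFF and 0% of all regions, and 4 of 42 (9.52%) had an unadjusted p under 0.05 against 11.4% of all. The lowest p in each direction belonged to the Gabra3 start site (lower) and to the high Gabra2 intron 6 region (higher), given above. The others were Gabrb1 intron 5 (chr5:72064161, score difference 0.66, SE 0.273, adjusted p = 0.409) and Gabra4 intron 8 (0.47, SE 0.202, adjusted p = 0.423). Groups without overlap were seen in 5 of 42 (11.9%) against 17.6%. Against PBS, PFF+MLi-2 gained 0 of 154 subunit regions (0% against 0.226%) and lost 1 (0.649% against 0.577%), which was the Gabra2 intron 6 region. Without PBS replicate 1 these counts were 2 gained and 1 lost, and without PBS replicate 2 they were 0 and 5. Limma called 0 of 42 in that comparison as well, 0% of all regions, with 5 of 42 (11.9%) at an unadjusted p under 0.05 against 5.77%, and 7 of 42 (16.7%) without overlap against 10.3%.

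PFF+Rab5 ASO vs PFF asks what adding the Rab5 ASO changes in fibril-treated neurons. Without a control oligonucleotide, lowering of Rab5 and exposure to an oligonucleotide cannot be told apart. Of 181 subunit regions 7 were gained (3.87% against 2.63%) and 2 were lost (1.1% against 1.94%). With lists of equal length 6 were gained and 4 lost, and at a −log10 q of at least 5 the balance turned to 4 gained and 5 lost. Of the 7 gained with the full lists, 5 were in Gabrg3, 1 in Gabra5 and 1 in the shared windows of Gabra4 and Gabrb1. The highest was in Gabrg3 intron 3 (chr7:57215964-57216111), 1584 bp from the region that PFF lacked. It had percentiles of 54.9, 48.3 and 68.2 in PFF+Rab5 ASO, a peak at 17.9 in PBS replicate 1 and none in the other 8 libraries. The region that PFF lacked was the next highest.

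The third by height, chr5:71666481-71666637, lies inside Gabrb1 and upstream of Gabra4. It had 73.3, 28.3 and 63.3 in PFF+Rab5 ASO, 49.3 and 41.0 in 2 PBS libraries and 69.3 and 31.7 in 2 PFF+MLi-2 libraries, so it was called in 7 libraries and in no PFF library. A peak in all 3 PFF+Rab5 ASO libraries and in 0 of the other 9 was found in 2 subunit regions, as in 1.14% of all regions. By comparison, 0 subunit regions were found in PFF alone (0.202% of all regions), PBS alone (0.0254%) or PFF+MLi-2 alone (0.0194%). The regions seen with the Rab5 ASO alone were Gabrg3 intron 5 (chr7:56796299-56796497, at 29.1, 16.2 and 50.4) and Gabra5 intron 3 (chr7:57506240-57506325, at 12.8, 11.5 and 11.9), both low in their lists.

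The lost regions were in Gabrg3 and Gabrb1. Of these, only the sequence of the Gabrb1 region, which had the lower mean percentile in PFF, is printed above. Gabrg3 intron 3 (chr7:57100069-57100368) had 65.2 and 56.2 in 2 PBS libraries, 48.8, 56.6 and 43.4 in PFF, 54.6, 48.4 and 49.8 with MLi-2 and no peak with the Rab5 ASO. Gabrb1 intron 3 (chr5:71761288-71761470), the stretch with TGANTCA at 2 positions, had 48.0 and 29.9 in 2 PBS libraries, 18.5, 32.2 and 43.4 in PFF, 19.8 in 1 PFF+MLi-2 library and none in PFF+Rab5 ASO. Neither ranked above 65.2 in any library.

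**Figure D4:**
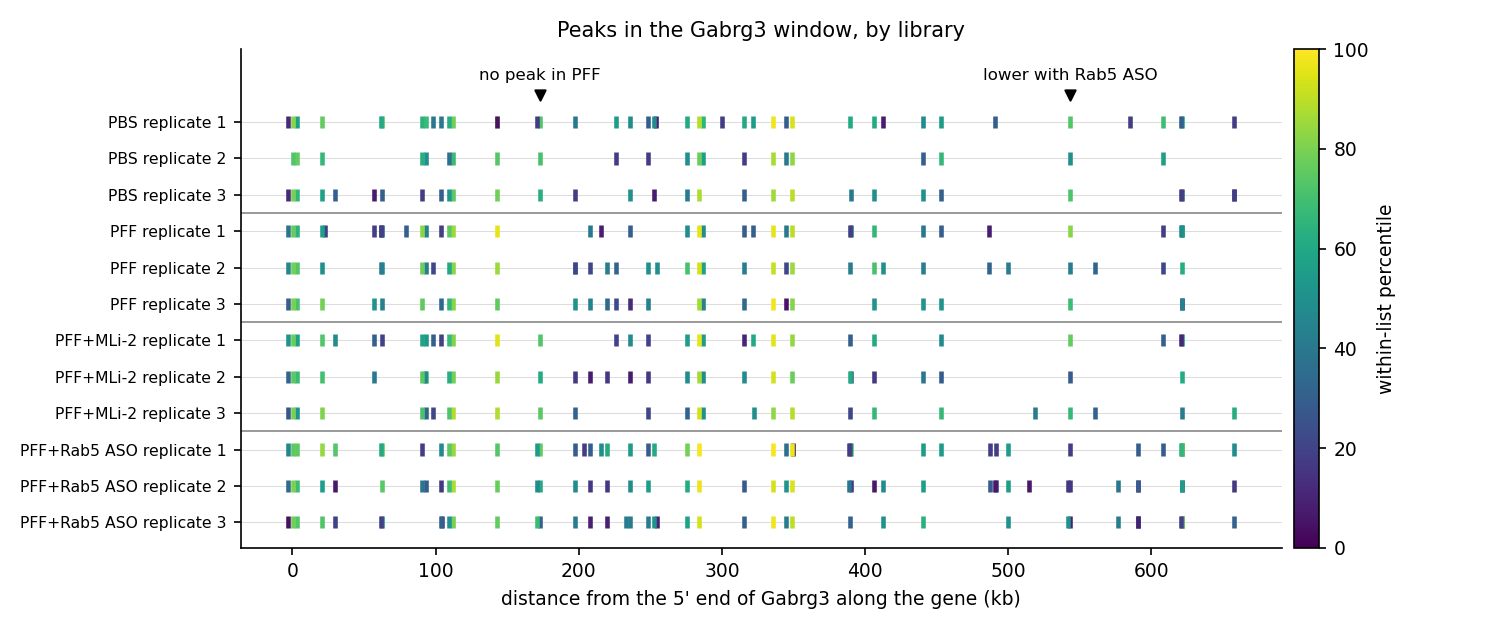
Peaks in the Gabrg3 window by library (rows) against the distance from the 5′ end of the gene in kb, coloured by within-list percentile. Triangles mark the intron 3 region without a peak in the 3 PFF libraries and the intron 5 region that ranked lower in PFF+Rab5 ASO.

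By height rank, PFF+Rab5 ASO vs PFF gave 1 of 42 subunit regions higher (2.38%, against 1.97% of all regions) and 1 lower (2.38% against 1.86%) at a limma adjusted p under 0.05. The higher one was in intron 8 of Gabra4 (chr5:71604182-71604690), with 85.4, 81.8 and 76.6 in PFF and 96.4, 92.8 and 93.7 in PFF+Rab5 ASO, against 84.3, 80.4 and 79.0 in PBS and 84.7, 88.8 and 90.3 in PFF+MLi-2. The PFF+Rab5 ASO libraries were above all others, and the score rose by 0.89 (SE 0.203, adjusted p = 0.0454). The call was lost under each of 9 alternatives, with adjusted p from 0.0573 to 0.124.

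The lower one was in intron 5 of Gabrg3 (chr7:56843580-56843900), 543 kb from the start site and also in the window of the gene model Gm44976. Its percentiles were 72.9, 49.3 and 71.9 in PBS, 82.1, 42.0 and 68.2 in PFF, 76.3, 28.7 and 67.1 with MLi-2 and 17.9, 16.2 and 9.4 with the Rab5 ASO. The PFF+Rab5 ASO libraries stood below the other 9. Their summits held 10 to 11 fragments, against 11 to 21 in the others, so the pileups touched. The score fell by 1.52 against PFF (SE 0.338, limma adjusted p = 0.0425). Against PBS it fell by 1.55 (SE 0.236, limma adjusted p = 0.0273). Leaving out 1 library ended the call against PFF in 5 of 6 cases, all but PFF replicate 2, and against PBS in 6 of 6, with adjusted p up to 0.111 and 0.0816. With the replicate number as a block the adjusted p was 0.0495 against PFF and 0.0739 against PBS, where the call ended. The number of regions with an unadjusted p under 0.05 was 8 of 42 (19%) against 21.1% of all regions, and 10 of 42 (23.8%) did not overlap against 25.9%.

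Against PBS, PFF+Rab5 ASO gained 9 of 184 subunit regions (4.89% against 2.59%) and lost 0 (0% against 0.992%). With lists of equal length, and also at a −log10 q of at least 5, 5 were gained and 2 lost. Of the 9, 5 were in Gabrg3, 2 in Gabra5, 1 in Gabrb1 and 1 in Gabra2. The highest were Gabrb1 intron 3 (chr5:71842283-71842541, at 81.8, 48.3 and 41.7) and Gabrg3 intron 5 (chr7:56887235-56887349, at 54.9, 55.4 and 50.4). By limma 1 of 42 was higher (2.38% against 1%) and 2 were lower (4.76% against 0.627%). The higher one was the Gabra3 start site. The lower ones were Gabrg3 intron 5 and Gabra2 intron 4 (chr5:71025941-71026231), which fell by 1.19 (SE 0.237, limma adjusted p = 0.0426).

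That Gabra2 region had 83.6, 66.8 and 78.5 in PBS, 79.7, 49.99 and 43.4 in PFF, 60.3, 39.6 and 56.6 with MLi-2 and 48.0, 55.4 and 31.0 with the Rab5 ASO. All PFF+Rab5 ASO and PFF+MLi-2 libraries lay below the PBS libraries, and 1 PFF library was as high as PBS. Against PBS the PFF+MLi-2 difference was -0.85 (SE 0.252, adjusted p = 0.816). Against PFF the PFF+Rab5 ASO difference was -0.43 (SE 0.326, limma adjusted p = 0.501), and those groups overlapped. The calls of the Gabra2 and Gabra3 regions against PBS ended when any 1 library was left out, at limma adjusted p from 0.0624 to 0.125 for Gabra2 and from 0.0629 to 0.0997 for Gabra3. With the replicate block they ended as well, at 0.0843 and 0.0762. In this comparison 9 of 42 regions (21.4%) had an unadjusted p under 0.05 against 18.7% of all regions, and 10 of 42 (23.8%) did not overlap against 23%.

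**Figure D5:**
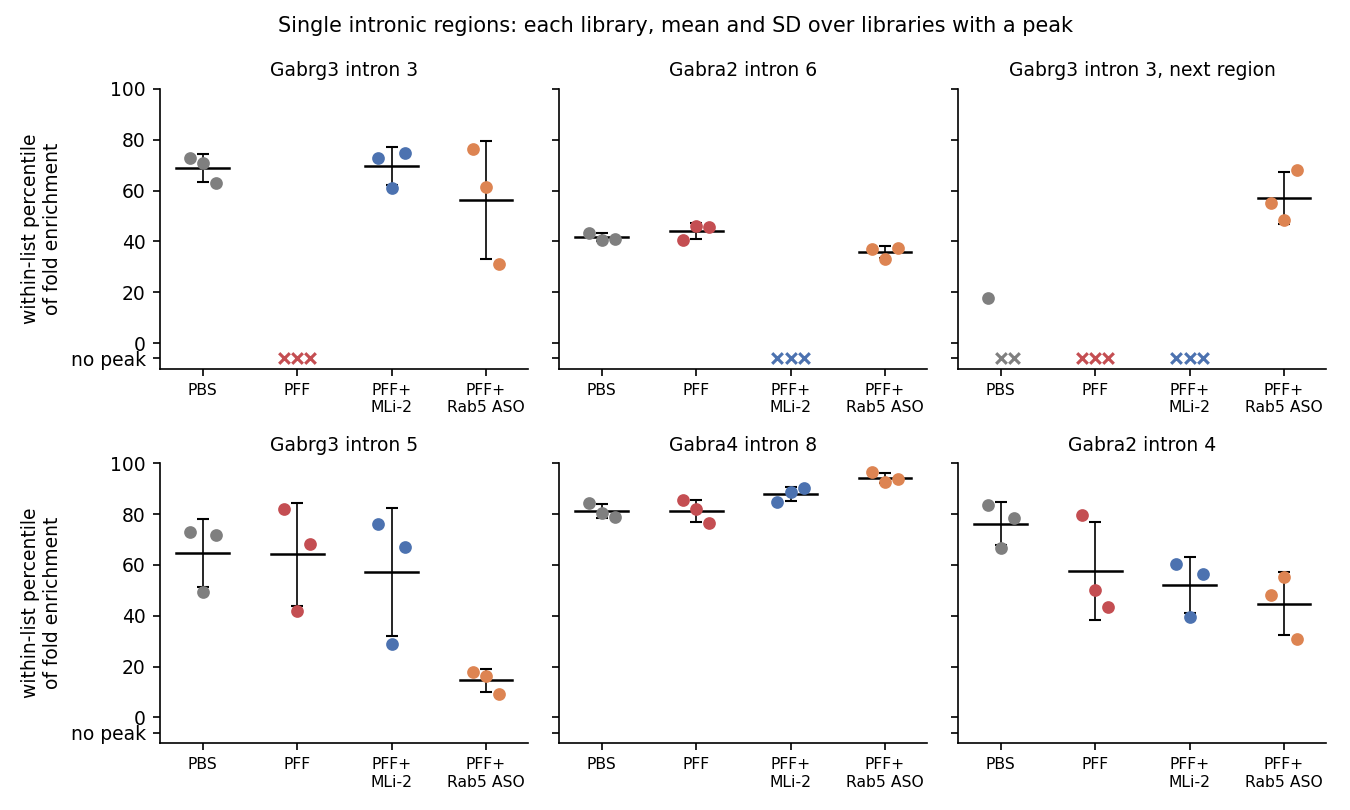
Within-list percentile (vertical axes) of 6 intronic regions by group, with crosses at "no peak" where a library had none. Points are libraries, and bars are the mean and SD over libraries with a peak. In Gabrg3 intron 5 the PFF+Rab5 ASO libraries lie at 9.4 to 17.9 and all others at 28.7 or above.

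Averaged over a gene's constant regions, height rank was tested for the 6 genes with at least 3 of them (all but Gabra3), and limma called 0 of 6 in each of the 5 comparisons. Of all 8734 genes 1.57% were higher and 1.24% lower with the Rab5 ASO against PFF, 0.447% and 0.309% against PBS, and 0% in the other comparisons. At an unadjusted p under 0.05 the members numbered 1 of 6 in PFF vs PBS (Gabrb2 at -0.25, SE 0.111, adjusted p = 0.467, against 10.3% of genes) and 1 of 6 in PFF+Rab5 ASO vs PBS (Gabra2 at -0.28, SE 0.123, adjusted p = 0.298, against 15.1%), and 0 of 6 in the others (against 14% of genes in PFF+MLi-2 vs PFF, 4.57% in PFF+MLi-2 vs PBS and 22.4% in PFF+Rab5 ASO vs PFF). Such a mean joins regions that differ in sign: in Gabra2 the difference between PFF+Rab5 ASO and PBS was -1.19 in intron 4 and 0.41 in the highest region of intron 6 (SE 0.246, adjusted p = 0.418).

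The wider GABA system was read from a list of 28 genes: other GABA-A subunits, proteins of receptor clustering and transport, enzymes and transporters of GABA, the chloride transporters and the GABA-B receptor. Together 27 of them held 374 regions, and Gabra6, a subunit of cerebellar granule cells, held none. Of these regions 24 also lie in the window of one of the 7 subunit genes. In PFF vs PBS 6 of these regions were gained and 1 lost, where 1.1% and 0.404% of all regions were. PFF+MLi-2 vs PFF showed 0 gained and 7 lost, where 0.374% and 1.64% of all regions were. PFF+Rab5 ASO vs PFF showed 8 gained and 10 lost, where 2.63% and 1.94% of all regions were. Against PBS, 0 were gained and 3 lost with MLi-2 (0.226% and 0.577% of all regions), and 10 were gained and 4 lost with the Rab5 ASO (2.59% and 0.992%). Nothing particular to the list is read from these counts. By height rank in limma, of 122 tested, 2 passed as higher against PFF and 1 as lower against PBS, all with the Rab5 ASO, where 1.97% and 0.627% of all regions passed in these directions.

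The higher ones were at Gad2, a GABA-synthesizing enzyme, and Slc32a1, the vesicular GABA transporter, and both also serve as markers of GABAergic neurons. At Gad2 the percentiles were 11.1, 29.4 and 15.1 in PFF and 52.1, 58.4 and 61.0 in PFF+Rab5 ASO (score difference 1.13, SE 0.231, limma adjusted p = 0.0345). At Slc32a1 they were 51.1, 29.4 and 9.74 in PFF and 66.7, 71.0 and 73.4 in PFF+Rab5 ASO (1.30, SE 0.271, adjusted p = 0.0356). Neither pair of groups overlapped. With 1 library left out each call held in 1 of 6 cases, without PFF replicate 2 at Gad2 and without PFF replicate 1 at Slc32a1, and the adjusted p reached 0.101 and 0.103. With ranks of the −log10 p-value they were 0.0519 and 0.0739, and with the replicate block 0.0446 and 0.0584. These regions (chr2:22620092-22620309 and chr2:158606683-158607001) are not the promoter regions used as markers. At the marker promoters the mean percentiles in PFF and PFF+Rab5 ASO were 22.4 and 38.9 at Gad1, 54.0 and 63.8 at Gad2 and 62.3 and 65.7 at Dlx2, against 55.9 and 49.4 at Slc32a1 and 68.0 and 62.9 at Dlx1. So 3 of 5 GABAergic promoters were higher in value and 2 lower, 0 of them lacked a peak, and the part of cell composition in the subunit regions was not tested. The lower one was at Slc12a2, a chloride importer of immature neurons (score difference -1.26, SE 0.233, limma adjusted p = 0.0358). This call ended in 6 of 6 cases with 1 library left out (adjusted p 0.0590 to 0.0978) and with the replicate block (0.0760). In number of called regions, Gabbr2, a GABA-B receptor subunit, was lower in PFF+Rab5 ASO than in PFF (-0.29 on the log2 scale, SE 0.0796, limma adjusted p = 0.0448), as were 2.19% of all genes. That call held in 2 of 6 cases with 1 library left out (adjusted p 0.0399 to 0.165) and ended with the replicate block (0.123) and with lists of equal length (0.181).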

How the data were processed

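ATAC-seq was performed on 12 cultures labelled as 3 replicates of each of 4 groups. The sources name FastQC, Trim Galore 0.6.7, Bowtie2 2.5.1, GRCm38 and MACS2 2.2.7.1. MACS2 options, a shift for Tn5 and the treatment of duplicates are not given in the sources used here. The authors deposited 1 peak list per library, without pooling, holding an integer score, the fold enrichment at the summit (a ratio to the local background), the −log10 p-value and −log10 q-value, and the summit offset as deposited. Fold enrichment has no common scale over lists, so each peak was ranked within its list and given as a percentile. Reads outside peaks were not analysed here, so a missing peak means a signal below the caller's threshold and not closed chromatin. Summit pileups in fragments were recovered from the deposited fold and −log10 p-value columns, and came out whole within 0.05. Relative depth is the most frequent local background divided by the shortest peak width, which stood in for fragment length, scaled to a mean of 1 over libraries. Since that width was 53 to 59 bp with the Rab5 ASO and 62 to 66 bp otherwise, the depth of these libraries depends on it, and the total number of reads is unknown.

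Regions on the 19 autosomes, X and Y were formed from all lists, giving 263562. In the 72408 with a peak in every library, ranks within a library were turned into normal scores and compared with limma 3.58.1 in R 4.3.3, with Benjamini-Hochberg adjustment over all of them. Numbers of called regions per gene were compared in limma as log2 of the count plus 0.5 relative to all calls. Mean scores needed at least 3 constant regions, and numbers at least 5 regions. All tests were two-sided except the exact permutation test over 4 groups. An exact test of 3 against 3 libraries cannot go below p = 0.1 and was not used. The study's methods count each pregnancy as a biological replicate, with its cultures divided over groups, but the labels tie no library to a pregnancy, so p-values measure the spread between 3 libraries per group. Other tools were Python 3.11.15, numpy 2.4.6, pandas 2.3.3, scipy 1.17.1 and matplotlib 3.10.9. The scripts were tested on simulated data.

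The 7 genes and the gene lists were chosen with earlier results of these data known. Regions were named by rule: the highest at a start site and the highest in each gene, up to 3 gained and 3 lost per main comparison, and up to 3 called per direction or, without a call, the smallest p. The regions named for PFF+Rab5 ASO vs PBS, for peaks seen in 1 group alone, for the fourth loss with MLi-2 and for other unadjusted p-values were chosen after their values were seen. Alternatives were equal list lengths, a −log10 q of at least 5, overlap of 50% around the summit, 2 of 3 libraries, gene bodies alone, ranks of the −log10 p-value, 6-library ranks, a replicate block and leaving out each library.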

Additional observations from a re-analysis of the deposited data

How the results depend on the processing

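Few fragments per peak limit every call of presence or absence. For PFF vs PBS the 3 regions gained or lost became 1 (0 gained, 1 lost) with lists of equal length, 2 (1 and 1) at a −log10 q of at least 5 and 11 (5 and 6) with 2 of 3 libraries required, and 3 to 6 when 1 library was left out, with 2 gained and 4 lost without PBS replicate 2. Equal length, 2 of 3 libraries and the absence of PBS replicate 2 reversed the balance of gains and losses, and the cause was not tested. For PFF+MLi-2 vs PFF the 5 regions (1 gained, 4 lost) became 4 (3 and 1, reversed) with lists of equal length, 4 (2 and 2) at a −log10 q of at least 5, 7 (3 and 4) with 50% overlap, 11 with 2 of 3 libraries and 6 to 9 with 1 library left out, the most without PFF+MLi-2 replicate 2. For PFF+Rab5 ASO vs PFF the 9 regions (7 gained, 2 lost) became 10 (6 and 4) with lists of equal length. They stayed 9 at a −log10 q of at least 5 but with 4 gained and 5 lost, and became 28 with 2 of 3 libraries. With 1 library left out they became 11 to 18, with 18 and 15 without PFF+Rab5 ASO replicates 2 and 3. For PFF+MLi-2 vs PBS the single region became 2 at a −log10 q of at least 5, 0 with 50% overlap, 7 with 2 of 3 libraries, and 1 to 5 with 1 library left out, including 3 (2 gained, 1 lost) without PBS replicate 1. For PFF+Rab5 ASO vs PBS the 9 regions (9 gained, 0 lost) became 7 (5 and 2) with lists of equal length and at a −log10 q of at least 5, 10 (8 and 2) with 50% overlap, 26 with 2 of 3 libraries and 10 to 16 with 1 library left out. Leaving out a library also makes the rule easier to meet, since fewer libraries must share a peak.

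Of the regions with a changed height rank in PFF+Rab5 ASO vs PFF, 2 became 0 with ranks of the −log10 p-value, 1 with 6-library ranks and 0 to 1 with 1 library left out. In PFF+Rab5 ASO vs PBS the 3 became 1 with ranks of the −log10 p-value and 0 with any library left out. With the replicate number as a block these counts were 1 and 0, and the number of genes with a changed number of called regions in PFF+Rab5 ASO vs PBS went from 0 to 1 (Gabrg3, adjusted p = 0.0353). Over 18 same-numbered pairs the correlation of deviations ran from 0.0052 to 0.079 with a median of 0.0286, against a median of -0.0161 over 36 differently numbered pairs. Because 0 exceeded 0.1 and the labels do not say what a number marks, the numbers were not taken as pairs. The same count was 0 to 1 with 1 library left out, in PFF+Rab5 ASO vs PFF as well. The 5 named height differences kept their sign in 45 of 45 alternatives and passed the threshold in 7. Of all alternatives to all results, 140 left a count within 1.5 times the reported one or a single region on its side of the threshold, whatever the split of a count short of a reversal. In 56 a count fell further or a call ended, in 23 a count rose further, and in 6 gains and losses changed places as the larger.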

Other observations

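Among 3095 protein-coding genes outside the GABA lists, the mean height score over 12 libraries was most like the mean of 6 subunit genes for Ccser1 (Pearson r = 0.85, over 12 constant regions) and Cngb3 (r = 0.84, 6 regions). These are descriptions, and the points share libraries and depth.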
